A study of Mus musculus with 185 samples.

Results

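The 10 genes described here encode secreted proteins of the Wnt pathway: the secreted frizzled-related proteins Sfrp1, Sfrp2, Sfrp4 and Frzb, the dickkopf proteins Dkk2 and Dkk3, the Wnt inhibitory factor Wif1, and the ligands Wnt5a, Wnt5b and Wnt2. They were chosen by name from the 17171 genes of the expression table, with earlier results of these data known. All 10 were listed there. Each of the 10 exceeded 5 TPM (a measure of transcript abundance corrected for transcript length and for the size of the library), the minimum for a detected gene, in at least 1 single cell, as did 15733 of the 17171 genes.

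The study profiled single non-myocytes of the mouse heart to follow fibroblasts before and after myocardial infarction, when they turn on periostin (Postn). Cells were caught in 4 microfluidic captures, called here by the names in the cell identifiers (Jul24, Jul29, Nov4 and Nov11), and fell into 9 label classes. The adult mice, about 5 months old on a C57BL/6 background, carried a tamoxifen-inducible MerCreMer at the Postn locus (PostnMCM/+) or at the Tcf21 locus (Tcf21MCM/+), with an R26-eGFP reporter that marks cells in which the recombinase has acted. The Postn knock-in leaves 1 functional Postn allele, and recombination marks only cells that used the driver while tamoxifen was given.

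From the infarcted heart there were 27 activated Postn-traced cells and 24 activated Postn-negative cells (both Jul29), 44 activated Tcf21-traced cells (Nov4), 29 untraced cells from the scar (Nov11), and 28 activated untraced Postn-positive cells. The last class was spread over 3 captures, with 6 cells in Jul29, 19 in Nov4 and 3 in Nov11. Traced cells were Postn-traced in Jul29 and Tcf21-traced in Nov4, and Nov11 held no traced cell. Untraced therefore need not mean the same in each capture, and this class may mix genotypes. Infarct classes of different captures may also differ in genotype, which cannot be told apart from class or capture. From hearts without infarction (Jul24) there were 17 resident Tcf21-traced cells and 12 resident cells labelled Postn- CD31- CD45-, called resident CD31- CD45- here. The other resident cells were 3 Postn-positive Tcf21-positive cells and 1 Postn-positive CD31- CD45- cell. The labels do not say which mouse a cell came from, so cells cannot stand for mice: a class is treated as 1 sample without a test, SD is the spread between cells, and the exact 95% Clopper-Pearson intervals of shares cover counting error only. The labels do not say which of these genotypes the untraced resident cells came from. All resident cells share a capture that holds no infarct cell, so injury and capture cannot be told apart.

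TPM values keep no record of sequencing depth, so the number of genes above 5 TPM stands in for it. Its median was 2092 in resident CD31- CD45- cells, 2264 in resident Tcf21-traced cells, 2342 in activated Postn-negative cells, 3134 in activated Tcf21-traced cells, 3177 in scar cells and 3643 in activated Postn-traced cells. The lowest cell, in the scar class, had 141 genes and the highest, an untraced Postn-positive cell, had 5419. Postn-traced cells therefore showed more genes than the Postn-negative cells of their own capture, and infarct classes mostly showed more than resident ones. The study also describes more transcripts in activated than in resident cells, so the number need not reflect depth alone.

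Fibroblast identity was read from 6 markers (Col1a1, Col3a1, Pdgfra, Tcf21, Dcn and Lum). At least 3 of them exceeded 5 TPM in 32 of 33 resident and 148 of 152 infarct cells, and Dcn was the most abundant in every class of 12 or more cells. Of the 5 cells below that, 4 were scar cells with 141 to 264 genes, and the other, a resident CD31- CD45- cell, had 4 myeloid markers above 5 TPM. A further 3 cells passed for fibroblast markers and also held at least 3 endothelial, myeloid, cardiomyocyte, epicardial or glial markers: activated Postn-negative cell 7 with 6 of 6 epicardial markers, activated Postn-negative cell 13 with 4 of 6 cardiomyocyte markers, and activated untraced Postn-positive cell 4 of Jul29 with 5 of 6 glial markers. Smooth muscle and pericyte markers were not used to single out cells: at least 3 of 6 smooth muscle markers exceeded 5 TPM in 22 infarct cells and at least 3 of 6 pericyte markers in 5, and in 0 resident cells. Of the label genes, Postn partly restates the labels, since untraced infarct cells labelled Postn-positive form a class of their own: it averaged 11.81 on the log2(TPM + 1) scale in Postn-traced cells and 1.44 in Postn-negative cells. Tcf21 did not separate in this way: it exceeded 5 TPM in 52.9% of resident and 59.1% of activated Tcf21-traced cells, 41.7% of resident CD31- CD45- cells and 79.2% of Postn-negative cells.

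Wnt ligands are lipid-modified proteins that bind Frizzled receptors, with the co-receptors Lrp5 and Lrp6 when the signal runs through beta-catenin, and with Ror or Ryk in branches that do not need it. Secreted frizzled-related proteins and Wif1 bind Wnt ligands outside the cell, whereas classical dickkopf proteins bind Lrp5 and Lrp6. In the heart, this pathway is known to become active after infarction and to act on fibroblasts and scar formation.

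On the mouse assembly GRCm38.p6 the annotated spans were chr8:23411383-23449632 for Sfrp1, chr3:83765750-83774314 for Sfrp2, chr2:80411970-80447396 for Frzb and chr7:112116019-112159482 for Dkk3, all protein-coding. Promoters were found for 6 of the 10 genes in the RefSeq table of that build. The 250 bases before the annotated start are shown for Sfrp2 (chr3:83766071-83766320, plus strand) and Frzb (chr2:80447397-80447646, minus strand), since both genes had a higher class mean in Postn-traced than in Postn-negative cells. The Sfrp2 window lies inside the annotated span of the gene, which opens further upstream. Both strands were searched for the TCF/LEF motif CTTTGAT, which is bound by the partners of beta-catenin in the nucleus. The TATA box was searched as TATAAA, a core element that places the start of transcription. The AP-1 motif was searched as TGANTCA, with any base in the middle. Capitals would mark a match, and neither window holds one.
Sfrp2: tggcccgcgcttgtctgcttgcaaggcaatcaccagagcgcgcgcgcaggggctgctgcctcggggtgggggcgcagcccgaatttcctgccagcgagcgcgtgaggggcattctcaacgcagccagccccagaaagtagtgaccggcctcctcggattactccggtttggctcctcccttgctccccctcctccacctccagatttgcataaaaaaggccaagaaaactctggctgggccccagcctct
Frzb: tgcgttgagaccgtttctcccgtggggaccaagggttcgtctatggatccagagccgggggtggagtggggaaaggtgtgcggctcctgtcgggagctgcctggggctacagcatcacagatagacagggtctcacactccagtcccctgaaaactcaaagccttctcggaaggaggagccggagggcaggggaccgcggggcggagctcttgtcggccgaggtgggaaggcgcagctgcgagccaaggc
Among 32851 promoter windows of that length, 3.21% held the TCF/LEF motif, 12.4% the TATA box and 6.75% the AP-1 motif. Of the 8 windows found for the 6 genes, those of Dkk2 and Wif1 held the letters TATAAA, those of Wif1 on the opposite strand 232 to 227 bases before the start and those of Dkk2 32 to 27 bases before it, 1 of Wnt5b the AP-1 motif and another of Wnt5b the TCF/LEF motif. A match or its absence describes the letters of a window and says nothing about the factors themselves.

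Sfrp1 was the member found in the most cells, with 109 of 152 infarct and 15 of 33 resident cells above 5 TPM. In resident CD31- CD45- cells its log2(TPM + 1) ran from 0 to 8.11 with a median of 0.47, and in resident Tcf21-traced cells from 0 to 7.54 with a median of 0.92. In the infarct it ran from 0 to 10.10 (median 3.76) in Postn-negative cells, from 0 to 9.90 (median 7.65) in Postn-traced cells, from 0 to 10.64 (median 4.96) in Tcf21-traced cells and from 0 to 9.73 (median 4.55) in scar cells. Every one of these classes held cells at 0 and cells at high values, so the ranges overlapped throughout.

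By class mean, the order of Sfrp1 was Postn-traced (6.10 ± 3.29, SD, n = 27 cells), untraced Postn-positive over all captures (5.55 ± 3.60, n = 28), Tcf21-traced (4.95 ± 3.21, n = 44), scar (4.35 ± 3.31, n = 29), Postn-negative (4.14 ± 4.03, n = 24), resident Tcf21-traced (2.61 ± 3.04, n = 17) and resident CD31- CD45- (2.48 ± 3.26, n = 12). No neighbours in this order differed by more than the SD between cells. The scar class includes 5 cells of 141 to 264 genes, at 0 for every member. They lower its means and shares here and below, so its place in an order of classes rests partly on them. The untraced Postn-positive mean pools captures, at 7.18 in Jul29 (n = 6), 5.39 in Nov4 (n = 19) and 3.4 in Nov11 (n = 3). In Jul29 it was thus above that of the Postn-traced cells. The share of cells above 5 TPM was 77.8% (57.7 to 91.4%) of Postn-traced and 54.2% (32.8 to 74.45%) of Postn-negative cells. It was 75% (55.1 to 89.3%) of untraced Postn-positive, 75% (59.7 to 86.8%) of Tcf21-traced and 72.4% (52.8 to 87.3%) of scar cells. Resident shares were 41.2% (18.4 to 67.1%) of Tcf21-traced and 41.7% (15.2 to 72.3%) of CD31- CD45- cells. The 3 resident Postn-positive Tcf21-positive cells all exceeded 5 TPM, at 6.12 to 9.36.

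Sfrp2 differed from Sfrp1 in being absent above the minimum from resident cells. It was listed at 0 in all 12 resident CD31- CD45- cells and all 17 resident Tcf21-traced cells, and 0 of 29 allows, at 3 counts of the total, a share of up to 10.3% of cells above the minimum (the upper Clopper-Pearson bound is 11.9%), which does not limit the share that express the gene. Of the other resident cells, the single Postn-positive CD31- CD45- cell had a value of 1.52, below the minimum. In the infarct its values ran from 0 to 10.60 (median 6.99) in Postn-traced cells, from 0 to 10.68 (median 3.72) in Tcf21-traced cells and from 0 to 11.74 (median 4.90) in scar cells. Postn-negative cells, from the same capture as the Postn-traced ones, had a median of 0, and 1 of 24 exceeded 5 TPM, at 8.64. That was cell 7, which also held 6 of 6 epicardial markers and, with 4881 genes, the most of its class.

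The share of cells with Sfrp2 was 51.9% (31.9 to 71.3%) of Postn-traced, 54.5% (38.8 to 69.6%) of Tcf21-traced, 58.6% (38.9 to 76.5%) of scar and 60.7% (40.6 to 78.5%) of untraced Postn-positive cells, against 4.17% (0.105 to 21.1%) of Postn-negative cells. The intervals of those 4 classes overlap one another and lie above that of the Postn-negative cells. Untraced Postn-positive cells pool captures: 2 of 6 had Sfrp2 in Jul29, 12 of 19 in Nov4 and 3 of 3 in Nov11. The interval in Jul29 (4.33 to 77.7%) overlaps that of the Postn-negative cells. Class means were 5.15 ± 4.4 (SD, n = 28) in untraced Postn-positive, 5.06 ± 4.56 (n = 29) in scar, 4.80 ± 4.53 (n = 27) in Postn-traced, 4.36 ± 3.83 (n = 44) in Tcf21-traced and 0.64 ± 1.82 (n = 24) in Postn-negative cells. The first 4 of these differ by far less than 1 SD. The scar share and mean include the 5 cells of 141 to 264 genes, all at 0. When present, the transcript was abundant, with a median of 350 TPM over the 73 cells above the minimum and a highest value of 4877 TPM.

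**Figure D1:**
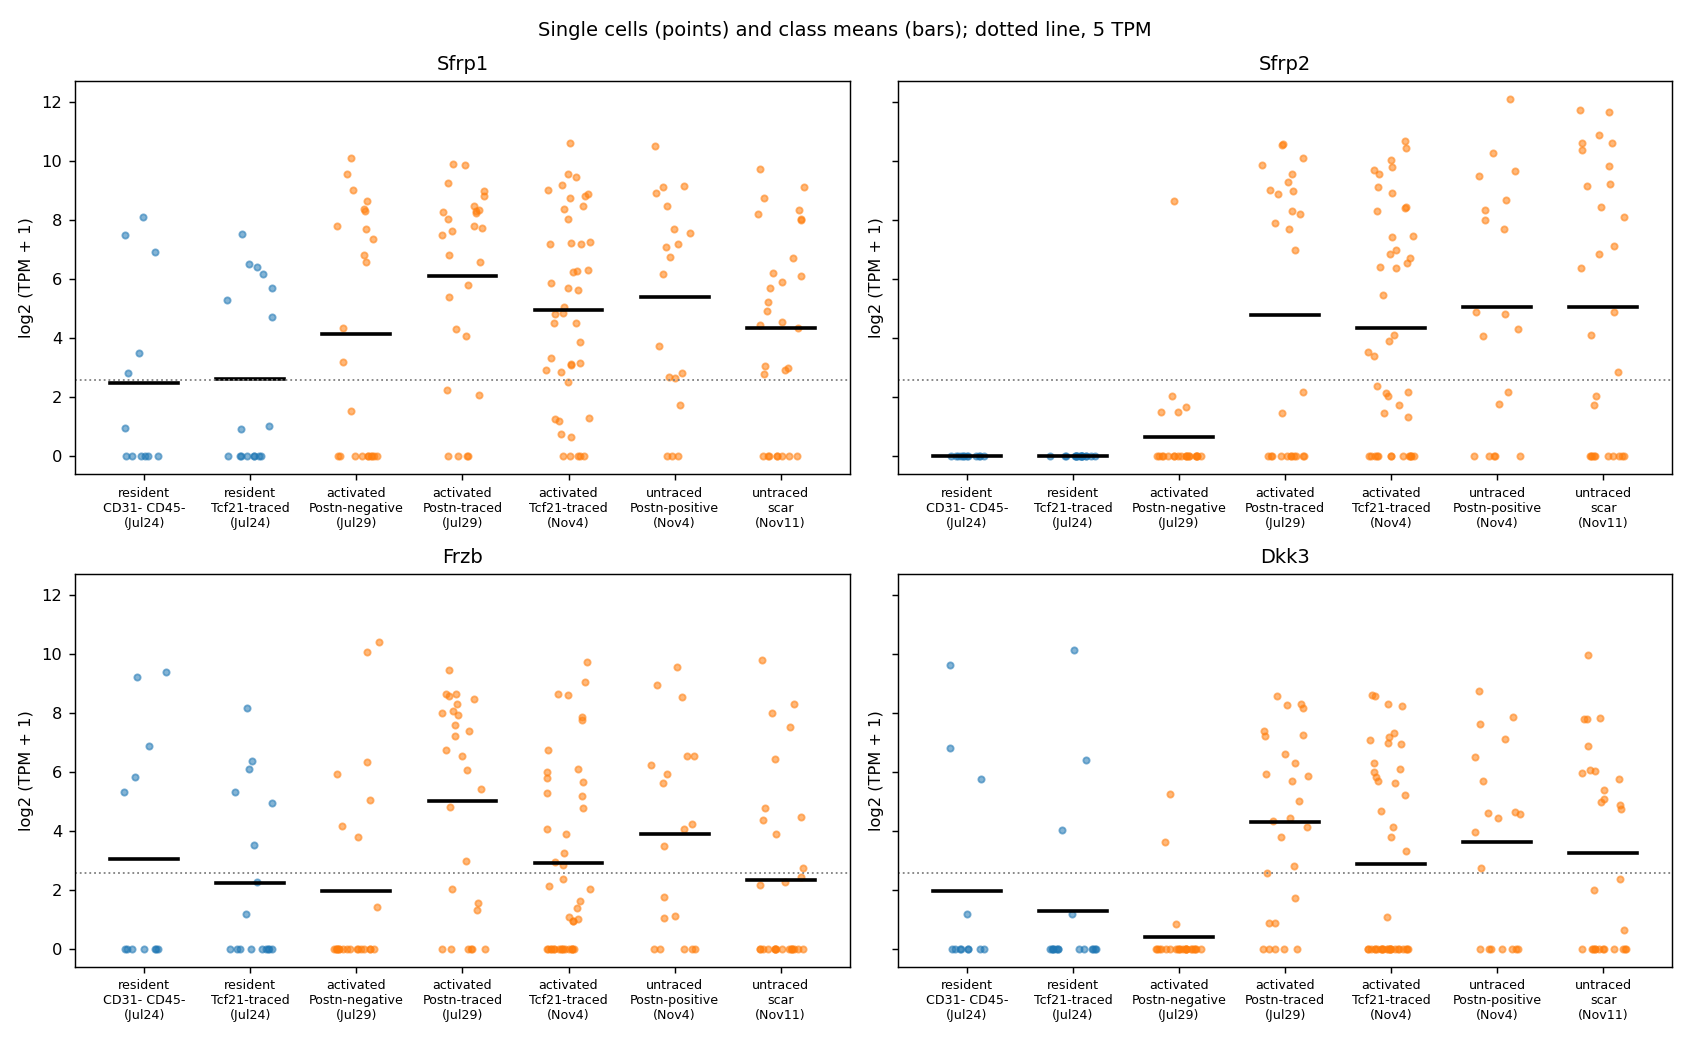
Values of Sfrp1, Sfrp2, Frzb and Dkk3 in single cells (points, log2(TPM + 1)) for 7 classes with their capture in brackets; bars are class means, the dotted line is 5 TPM, and blue marks resident and orange infarct cells. Sfrp2 lies at 0 in all 29 resident cells shown, and in most classes each gene has both cells at 0 and cells at high values.

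Frzb, another Wnt-binding member of the family, was above 5 TPM in 69 of 152 infarct and 13 of 33 resident cells. Its values ran from 0 to 9.47 (median 6.54) in Postn-traced cells and from 0 to 10.41 (median 0) in Postn-negative cells. In resident cells they ran from 0 to 9.38 (median 0) in the CD31- CD45- class and from 0 to 8.18 (median 0) in the Tcf21-traced class. Detection was 66.7% (46 to 83.5%) in Postn-traced, 53.6% (33.9 to 72.5%) in untraced Postn-positive, 43.2% (28.4 to 59%) in Tcf21-traced, 41.7% (15.2 to 72.3%) in resident CD31- CD45-, 35.3% (14.2 to 61.7%) in resident Tcf21-traced, 34.5% (17.9 to 54.3%) in scar and 29.2% (12.6 to 51.1%) in Postn-negative cells. These intervals overlap between all neighbours, and Frzb, unlike Sfrp2, was well represented in resident cells.

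Sfrp4 was sparse, with 13 cells above 5 TPM, 11 of them among the 152 infarct cells and 2 among resident Tcf21-traced cells. The cells that had it ranged from 11.9 to 1518 TPM. It was listed at 0 in all 24 Postn-negative cells.

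Dkk3, a divergent dickkopf protein whose role in Wnt signalling is less settled than that of its relatives, exceeded 5 TPM in 71 of 152 infarct and 8 of 33 resident cells. Its values ran from 0 to 8.59 (median 4.42) in Postn-traced cells and from 0 to 5.24 (median 0) in Postn-negative cells. In Tcf21-traced cells they ran from 0 to 8.62 (median 0), in scar cells from 0 to 9.98 (median 2.37), and in resident Tcf21-traced cells from 0 to 10.13 (median 0). Few resident or Postn-negative cells had the transcript, yet some of the highest values were resident: the single resident Postn-positive CD31- CD45- cell stood at 10.38.

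The share of cells with Dkk3 was 66.7% (46 to 83.5%) of Postn-traced, 60.7% (40.6 to 78.5%) of untraced Postn-positive, 48.3% (29.4 to 67.5%) of scar, 45.5% (30.4 to 61.2%) of Tcf21-traced, 25% (5.49 to 57.2%) of resident CD31- CD45-, 17.6% (3.80 to 43.4%) of resident Tcf21-traced and 8.33% (1.03 to 27%) of Postn-negative cells. The interval of the Postn-negative cells lies below those of the 4 other infarct classes. The scar share includes the 5 cells of 141 to 264 genes, all at 0. In Jul29 alone, 3 of 6 untraced Postn-positive cells had Dkk3, and that interval (11.8 to 88.2%) overlaps the Postn-negative one.

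Dkk2, which binds Lrp5 and Lrp6, exceeded 5 TPM in 2 cells, both activated untraced Postn-positive: cell 12 of Nov4 at 98.7 TPM and cell 8 of Nov11 at 33 TPM. Wif1 exceeded it in 1 cell, scar cell 22, at 11.5 TPM. That cell was also among those with Wnt2 and Sfrp4.

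Among the ligands, Wnt5a, known for signalling without beta-catenin, was above 5 TPM in 18 of 152 infarct and 9 of 33 resident cells. In resident cells its values ran from 0 to 9.22 (median 0) in the CD31- CD45- class and from 0 to 8.67 (median 0) in the Tcf21-traced class. In Postn-traced cells they ran from 0 to 7.92, in Tcf21-traced cells from 0 to 7.05 and in Postn-negative cells from 0 to 5.62, each with a median of 0. Among the members found in more than 2 cells, Wnt5a was the 1 with a higher share in resident than in infarct cells: 31% (15.3 to 50.8%) of the 29 cells of the main resident classes against 11.8% (7.17 to 18.1%) of 152 infarct cells. These intervals overlap. All 3 untraced Postn-positive cells of Nov11 had Wnt5a, at 3.10 to 6.30.

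Wnt5b exceeded 5 TPM in 2 cells, Postn-traced cell 8 at 100 TPM and resident Tcf21-traced cell 16 at 175 TPM. Wnt2, a ligand of the beta-catenin branch, exceeded it in 6 cells, all from the infarct and in the Nov4 and Nov11 captures: 3 scar cells, 2 Tcf21-traced cells and 1 untraced Postn-positive cell, the last at 1739 TPM.

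**Figure D2:**
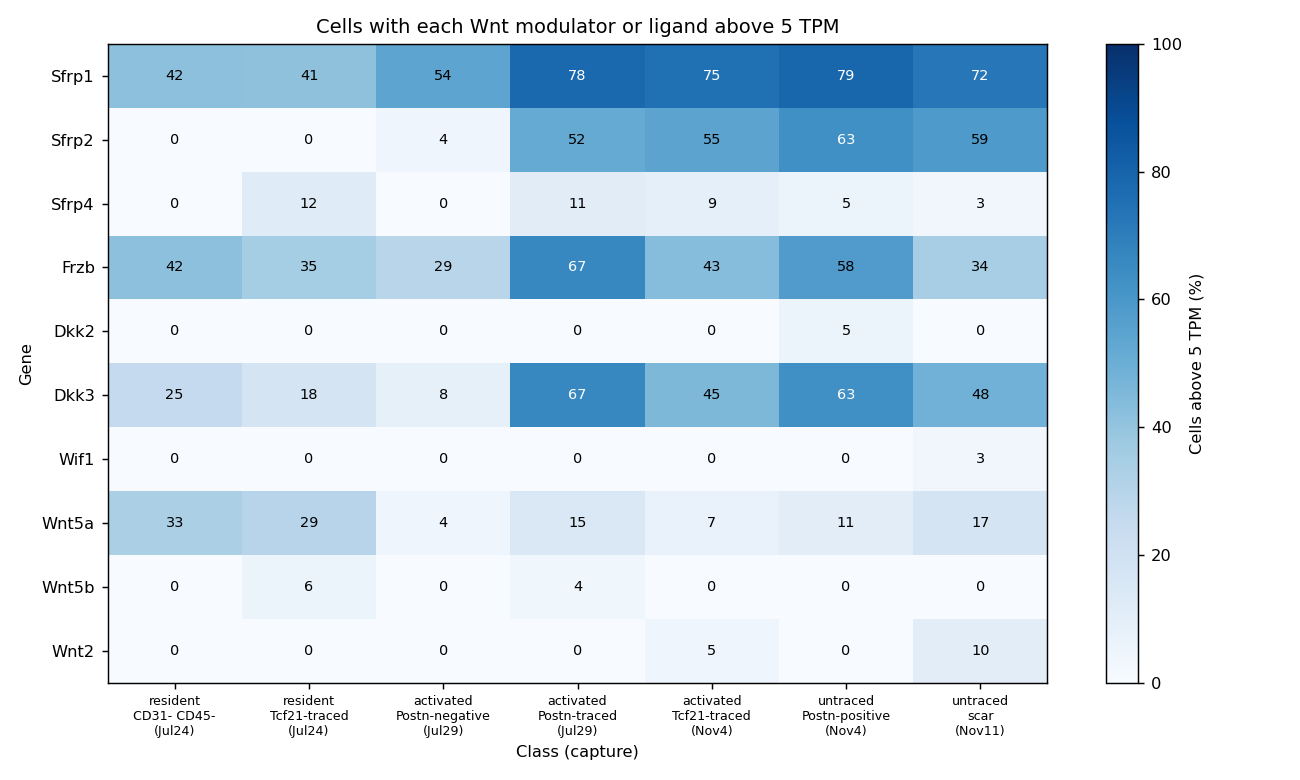
Percentage of cells above 5 TPM for the 10 genes (rows) in 7 classes with their capture in brackets (columns), with darker blue for higher values. Sfrp1 is the most frequent in all 7 classes, level with Frzb in resident CD31- CD45- cells, and Dkk2, Wif1 and Wnt5b do not exceed 6% in any.

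The first comparison asked how infarct cells that had used the Postn driver differ from Postn-negative cells of the same capture. Sfrp2 was 4.17 log2 units higher in traced than in negative cells, Dkk3 3.90, Frzb 3.06 and Sfrp1 1.96. Thus 4 of 10 members lay more than 1 log2 unit higher, against 16.7% of the 15733 genes tested, and 0 of 10 lay more than 1 unit lower, against 2.35%. The members were chosen with earlier results of these data known, which limits this and the later counts set against all genes. The median difference was 0.73 over the members and 0.19 over all genes tested. The spread between cells was large beside these differences, with SDs in Postn-traced cells of 4.53 for Sfrp2, 3.52 for Frzb, 3.29 for Sfrp1 and 3.02 for Dkk3. Differences on the log2(TPM + 1) scale understate those of low genes.

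This difference came with a difference in depth, 3643 against 2342 genes per cell, whose part in it was not tested. Among cells with 2000 to 3500 genes, a range added after the data were seen, 11 traced and 21 negative cells remained, with medians of 3092 and 2346 genes, and the differences were 4.13 for Sfrp2, 3.12 for Dkk3, 2.88 for Frzb and 2.33 for Sfrp1. Among genes above 5 TPM in at least 20% of the cells of either class, 39.4% lay more than 1 unit higher. The count of 4 of 10 members was made without that filter. The members that pass it are Sfrp1, Sfrp2, Frzb and Dkk3, all more than 1 unit higher, with Sfrp2 and Dkk3 passing only through the traced class. With TPM averaged before taking the logarithm, the differences of Sfrp2 and Dkk3 were 4.25 and 4.78. For Sfrp2 the Postn-negative mean was 17 TPM, mostly from cell 7 at 399 TPM, which had 6 of 6 epicardial markers. Averaging TPM first gave 0.44 and 0.49 for Sfrp1 and Frzb, below 1 unit. The sparse genes Sfrp4 and Wnt5a, at 0.86 and 0.60 on the scale used here, reached 4.70 and 2.39 in that way, Wnt5b went from 0.25 to 2.24 through 1 traced cell, and Sfrp4 was at 0 in both classes among the cells with 2000 to 3500 genes. With medians over cells the differences were 6.99 for Sfrp2, 6.54 for Frzb, 4.42 for Dkk3 and 3.89 for Sfrp1.

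The second comparison set activated against resident Tcf21-traced cells, the same lineage in infarcted and uninjured hearts. Sfrp2 was 4.36 log2 units higher in activated cells, Sfrp1 2.35 and Dkk3 1.61, whereas Wnt5a differed by -1.86. So 3 of 10 members were more than 1 unit higher, against 16.9% of genes, and 1 of 10 more than 1 unit lower, against 2.65%. Among genes above 5 TPM in at least 20% of either class the shares were 41.7% higher and 6.21% lower, whereas the member counts were made without that filter. The members that pass it are the 4 named above and Frzb, with Sfrp2 and Dkk3 passing only through the activated class and Wnt5a only through the resident class. The median difference was 0.15 over the members and 0.16 over all genes. Frzb differed by 0.67, by 1.82 with medians over cells and by 1.18 with TPM averaged before the logarithm. Averaging TPM first also gave 7.79 for Sfrp2, 2.07 for Wnt2, -3.64 for Wnt5a and -3.5 for Wnt5b, the last through 1 resident cell. The direction for Dkk3 turned when TPM was averaged before the logarithm, to -0.31, with mean TPM of 57.8 in activated and 71.7 in resident cells. That resident mean rests mostly on cell 14, at 1118 TPM, beside 15.2 and 84.4 TPM in the other cells above 5 TPM. With medians over cells the differences of Dkk3 and Wnt5a were 0. Median depth was 3134 against 2264 genes, and the captures differ, so their part cannot be told apart from that of injury.

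In the third comparison, within the Nov4 capture, 19 untraced Postn-positive cells were set against 44 Tcf21-traced cells. Differences were 0.97 for Frzb, 0.72 for Dkk3, 0.71 for Sfrp2 and 0.44 for Sfrp1. On this scale none of the 10 members passed 1 unit, with 0 higher against 5.05% of genes and 0 lower against 3.34%. The differences of Sfrp1 and Sfrp2 were -0.85 and -0.40 in cells with 2000 to 3500 genes, so no direction is given for them. With each cell centred on its median gene Frzb differed by 1.24, and with TPM averaged before the logarithm Sfrp2 differed by 1.02 and Sfrp4, found in 1 of the 19 and 4 of the 44 cells, by 2.41. In the same way Dkk2 differed by 2.60 and Wnt2 by -2.07. With medians over cells all 4 frequent members passed 1 unit, at 4.44 for Dkk3, 2.26 for Frzb, 1.81 for Sfrp1 and 1.09 for Sfrp2.

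The next comparison, of the main resident classes within Jul24, likewise had 0 of 10 members more than 1 unit higher in Tcf21-traced cells, against 8.65% of genes, and 0 lower, against 6.55%. The most distant was Frzb, at -0.82. Without the cells singled out by markers other than those of smooth muscle and pericytes, a setting added after they were seen, Frzb differed by -1.10, among cells with 2000 to 3500 genes by -1.18, and with TPM averaged before the logarithm by -1.96. Sfrp4, with 2 of 17 cells against 0 of 12, differed by 0.71, and by 3.72 with TPM averaged first. Wnt5b, in 1 of 17 cells against 0 of 12, differed by 0.44 and 3.5 in the same way.

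The last comparison set the Postn-negative infarct cells (Jul29) against resident CD31- CD45- cells (Jul24), so capture, injury and possibly genotype cannot be told apart. Sfrp1 was 1.66 log2 units higher in the infarct cells, and Wnt5a, Dkk3 and Frzb differed by -1.79, -1.54 and -1.08. That is 1 of 10 members higher, against 10.3% of genes, and 3 of 10 lower, against 5.2%. Among genes above 5 TPM in at least 20% of either class the shares were 29% higher and 13.6% lower, whereas the member counts were made without that filter. The members that pass it are Sfrp1, Wnt5a, Dkk3 and Frzb, with Wnt5a and Dkk3 passing only through the resident class. Median depth was similar, at 2342 and 2092 genes. Myeloid markers summed to a mean of 766 TPM in resident CD31- CD45- cells, led by Lyz2 at 433 TPM, and 0.313 TPM in Postn-negative cells, where Ptprc, Itgam, Csf1r and Lyz2 were at 0. All of the 766 TPM came from cell 1, which had 0 members, and the sum over the other 11 cells was 0. Endothelial markers summed to 62.6 TPM in Postn-negative and 9.36 TPM in resident CD31- CD45- cells and glial markers to 32.8 and 0 TPM, or 68.2 and 10.2 TPM and 32.6 and 0 TPM without the cells singled out. Of the marker genes, Smtn, Cnp and Tcf21 were more than 1 unit higher and Lyz2 more than 1 unit lower in Postn-negative cells, and their part in the differences of the members was not tested. Without the same kind of cells the differences were 1.52 for Sfrp1, -2.07 for Wnt5a, -1.58 for Dkk3 and -1.37 for Frzb. The calls of the last 3 rest on the cells that had the genes: with medians over cells their differences were 0, and that of Frzb was -0.15 with TPM averaged before the logarithm and -0.82 with a pseudocount of 5. Averaging TPM first moved Dkk3 and Wnt5a the other way, to -4.72 and -4.29. Sfrp2, at 0.64, reached 4.17 with TPM averaged first, through Postn-negative cell 7 with its epicardial markers. Several comparisons share classes, so their values are set side by side and no agreement between them is counted.

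**Figure D3:**
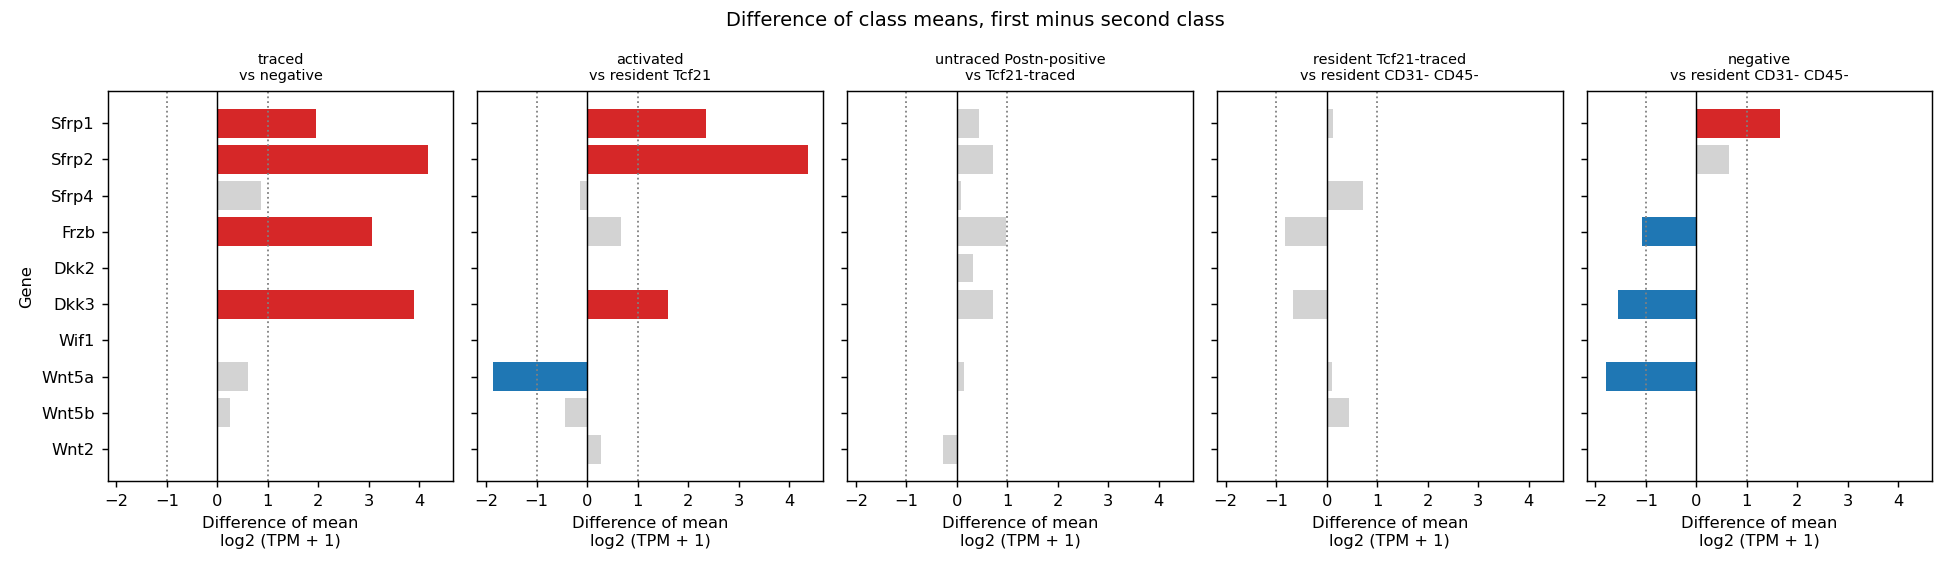
Difference of class means of log2(TPM + 1), first minus second class, for the 10 genes in the 5 comparisons; dotted lines mark 1 unit, red bars lie above it, blue bars below -1, and grey bars between. Sfrp1, Sfrp2, Frzb and Dkk3 pass 1 unit in traced against negative cells, and no gene passes it in untraced Postn-positive against Tcf21-traced cells or between the resident classes.

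Cells often held several members. No share expected from those of the single genes was computed, so these counts do not show that members go together. At least 3 of the 10 exceeded 5 TPM in 63% (42.4 to 80.6%) of Postn-traced cells, 57.1% (37.2 to 75.5%) of untraced Postn-positive, 51.7% (32.5 to 70.5%) of scar and 47.7% (32.5 to 63.3%) of Tcf21-traced cells. At least 3 members were also found in 25% (5.49 to 57.2%) of resident CD31- CD45-, 17.6% (3.80 to 43.4%) of resident Tcf21-traced and 4.17% (0.105 to 21.1%) of Postn-negative cells. The highest count was 6 members, in an untraced Postn-positive cell of Nov11. The scar share includes 5 cells with 0 members, those of 141 to 264 genes.

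Sfrp2 was mostly found where Sfrp1 was: of 73 cells with Sfrp2, 64 also had Sfrp1, which is 87.7% of the Sfrp2 cells and 51.6% of the Sfrp1 cells. Sfrp1 was found in 71.7% of all infarct cells, the cells that hold every Sfrp2 cell. In Tcf21-traced cells all 20 cells with Dkk3 also had Sfrp1, which 33 of all 44 cells of the class had. In Postn-traced cells 13 of 18 cells with Dkk3 had Sfrp1, or 72.2% against 77.8% of the class, and in untraced Postn-positive cells of Nov4 it was 9 of 12 against 15 of 19. In Postn-negative cells the 1 cell with Sfrp2 and the 2 cells with Dkk3 had no Sfrp1 above 5 TPM, which 13 of all 24 cells had. These are too few cells for a contrast with the other classes, and the Sfrp2 cell is cell 7, with its epicardial markers.

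Within captures, Pearson r between Sfrp1 and Sfrp2 across cells was 0.25 in Jul29, 0.52 in Nov4 and 0.28 in Nov11. Between Sfrp2 and Dkk3 it was 0.33, 0.37 and 0.35, and between Frzb and Dkk3 0.42, 0.25 and 0.24. The lowest in these 3 captures was 0.07, between Sfrp1 and Dkk3 in Jul29. In Jul24, where Sfrp2 had 1 value above 0, r was -0.16 between Sfrp1 and Sfrp2, 0.47 between Sfrp2 and Dkk3 and 0.09 between Frzb and Dkk3. These are weak to moderate and describe cells that share a capture. Depth moved with them: the number of members per cell correlated with the number of genes at r = 0.29 in Jul24, 0.57 in Jul29, 0.49 in Nov4 and 0.81 in Nov11, and its part in the correlations between members was not tested.

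**Figure D4:**
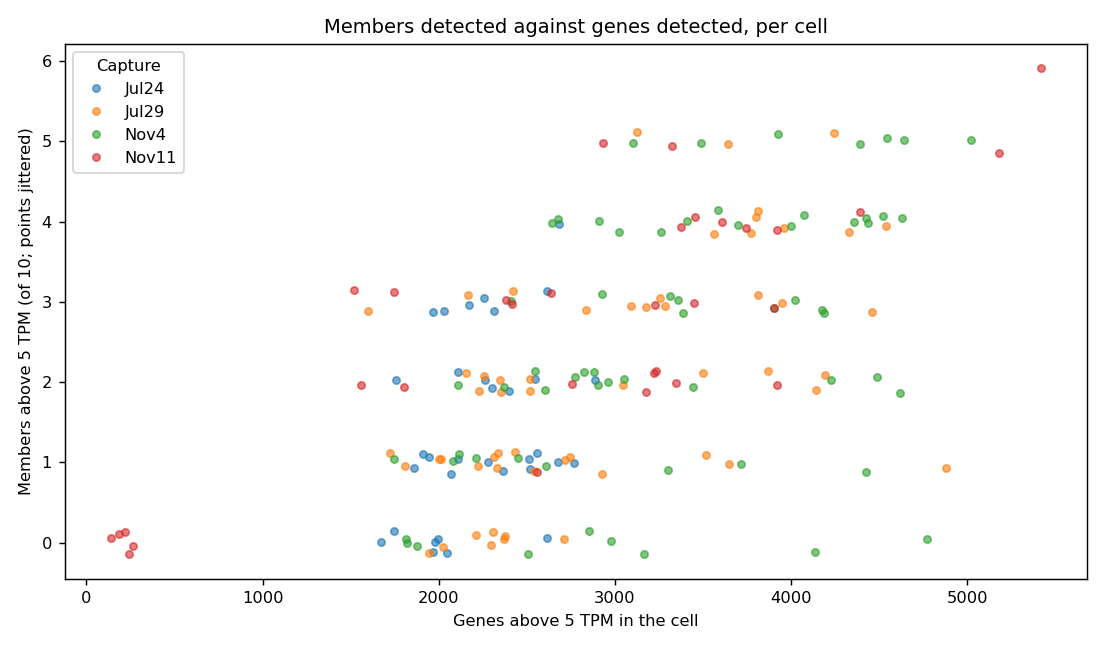
Number of the 10 members above 5 TPM (vertical axis, jittered) against the number of genes above 5 TPM (horizontal axis) in each cell, coloured by capture. Cells with more genes tend to have more members, and the 5 cells under 300 genes, all Nov11, have none.

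The genes most like each frequent member were sought among 3092 genes above 5 TPM in at least 20% of the cells of every capture, by the mean of r over the 4 captures. They were Rpl15 (0.39), Col14a1 (0.38) and Emilin1 (0.37) for Sfrp1, Fn1 (0.50), Csrp2 (0.43) and Mfap4 (0.42) for Sfrp2, Meox1 (0.40), Dpy19l1 (0.38) and Actn1 (0.38) for Frzb, and Dap (0.42), Grcc10 (0.42) and 2010107E04Rik (0.41) for Dkk3. The mean hides differences between captures, which also pool classes of different means: for Dpy19l1 r was 0.78 in Jul24, 0.20 in Jul29, 0.01 in Nov4 and 0.53 in Nov11. The 3 genes for Dkk3 had r of 0.65 to 0.84 in Nov11, which holds the 5 cells under 300 genes, and 0.17 to 0.46 in the other captures. In Nov11 Dkk3 itself had r of 0.64 with the number of genes, whose part in these values was not tested. Col14a1, Emilin1, Fn1 and Mfap4 encode proteins of the extracellular matrix. Sfrp2 exceeded 5 TPM in 0 cells of Jul24, so its r there rests on values below the minimum; over the other 3 captures Col1a1 (0.45) took the place of Mfap4.

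Other Wnt pathway genes were taken from lists. Of 16 other Wnt ligands, 6 were analysed here, and none passed 1 unit in any of the 5 comparisons, in which 5.05 to 16.9% of all genes lay higher and 2.35 to 6.55% lower. Of 12 other secreted modulators 8 were analysed, and Igfbp4 and Cthrc1 were above 5 TPM in at least 20% of the cells of some class. Cthrc1, a secreted protein of injured tissue, averaged 10.51 in Postn-traced cells, 6.95 in Tcf21-traced cells, 1.33 in Postn-negative cells and 0.73 in resident Tcf21-traced cells. Of 2 genes of ligand lipidation and export, 1 was more than 1 unit higher in Postn-traced than in Postn-negative cells, against 16.7% of all genes: Wls, which carries Wnt ligands to the cell surface, averaged 7.12 in Postn-traced and 3.59 in Postn-negative cells. It was also more than 1 unit higher in activated (5.35) than in resident (3.86) Tcf21-traced cells, against 16.9% of all genes.

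Of 21 receptors and co-receptors 18 were analysed, and 3 were more than 1 unit higher in Postn-traced than in Postn-negative cells (Fzd1, Fzd2 and Ryk) and none lower, a share of higher genes no different from the 16.7% of all genes. The most frequent were Ryk, a co-receptor of Wnt ligands, in 90 cells, and Lgr4, a receptor of R-spondins, in 81. Ryk averaged 4.85 in untraced Postn-positive and 2.84 in Tcf21-traced cells of Nov4, and 4.28 in resident CD31- CD45- and 1.68 in resident Tcf21-traced cells. Of 12 intracellular transducers, 5 were more than 1 unit higher in that comparison (Dvl1, Dvl3, Ctnnb1, Apc and Tcf7l1), against 16.7% of all genes and 39.4% of those above 5 TPM in at least 20% of either class, with a median difference of 0.76 against 0.19 over all genes. Dvl1, Gsk3a and Btrc do not pass that 20% filter, so the 5 of 12 and the 39.4% cover unlike sets. Ctnnb1, which encodes beta-catenin, averaged 6.25 in Postn-traced and 3.26 in Postn-negative cells.

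Of 14 feedback and target genes of beta-catenin 13 were analysed, and 2 were more than 1 unit higher in Postn-traced cells (Nkd2, a feedback inhibitor, and Wisp1, a matricellular target gene), against 16.7% of all genes, and the median difference was 0 against 0.19 over all genes. Wisp1 was above 5 TPM in 12 of 27 Postn-traced cells, 17 of 44 Tcf21-traced cells, 1 of 24 Postn-negative cells and 0 of 29 cells of the main resident classes. Of 8 planar polarity genes, 0 passed 1 unit in traced against negative cells, and Prickle1 was more than 1 unit higher in activated than in resident Tcf21-traced cells. In that comparison 2 of 18 receptors (Fzd2 and Ryk), 2 of 12 transducers (Ctnnb1 and Gsk3b) and 2 of 13 target genes (Myc and Wisp1) were also more than 1 unit higher, with none lower, and none of these shares exceeded the 16.9% of all genes. Ctnnb1 averaged 6.10 in activated and 4.06 in resident Tcf21-traced cells.

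**Figure D5:**
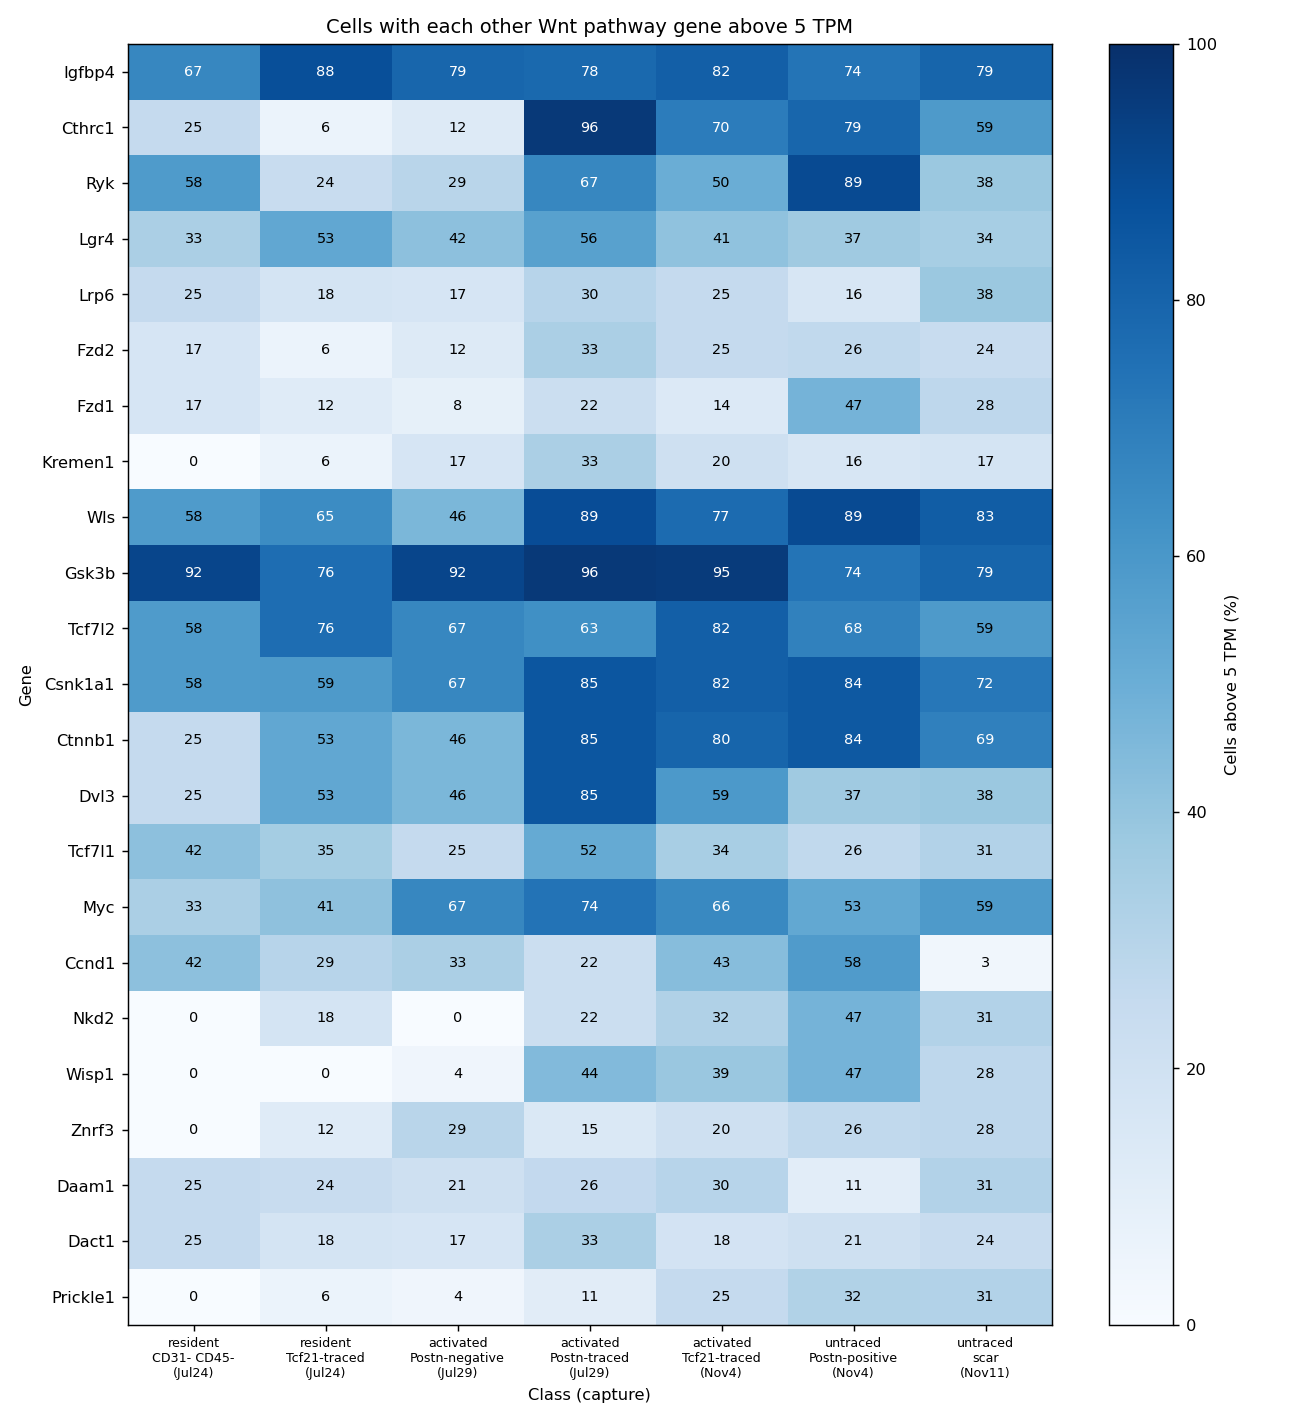
Percentage of cells above 5 TPM for 23 other Wnt pathway genes (rows) in 7 classes with their capture in brackets (columns). Cthrc1 and Wisp1 have higher shares in the Postn-traced, Tcf21-traced, Postn-positive and scar classes than in the resident and Postn-negative classes, whereas Gsk3b is frequent in all 7.

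Markers of other cell types were low beside those of fibroblasts. Endothelial markers, of which 4 of 6 were analysed, summed to 9.36 to 62.6 TPM over the 7 classes of 12 or more cells, with Tek the most abundant in each, Kdr at 0 in all but the scar class and Emcn at 0 in all but the Postn-traced class. Myeloid markers, 5 of 6 analysed, summed to 0.313 to 15.8 TPM in these classes apart from resident CD31- CD45- cells. Smooth muscle markers, some of which activated fibroblasts also express, differed between the Postn classes of Jul29. Their summed mean was 753 TPM in Postn-traced cells, with Tagln at 514 TPM. In Postn-negative cells it was 106 TPM, with Smtn at 52 TPM and Myh11 and Cnn1 at 0. In untraced Postn-positive cells of that capture (n = 6) it was lower still, at 77.2 TPM, with Acta2 at 0. At least 3 of the 6 smooth muscle markers exceeded 5 TPM in 4 of 27 Postn-traced and 0 of 24 Postn-negative cells. Between Tcf21-traced classes they summed to 465 TPM in activated cells, with Myh11 at 0, and 103 TPM in resident cells, with Myh11 and Cnn1 at 0. In untraced Postn-positive cells of Nov4 they summed to 1205 TPM, with Tagln at 769 TPM and Myh11 and Cnn1 at 0. Against Tcf21-traced cells of that capture Acta2 and Tagln were more than 1 unit higher there, and of the fibroblast markers Col1a1 was more than 1 unit higher and Pdgfra and Tcf21 more than 1 unit lower. Pericyte markers summed to 107 TPM in Postn-traced and 85.3 TPM in Postn-negative cells, led by Pdgfrb, with Rgs5 and Kcnj8 at 0 in both, and to 142 TPM in activated and 11.6 TPM in resident Tcf21-traced cells. Pdgfrb was more than 1 unit higher in these 2 comparisons and in untraced Postn-positive against Tcf21-traced cells. Epicardial markers summed to 18.5 TPM in Postn-traced cells, led by Wt1, and 90.5 TPM in Postn-negative cells, led by Krt19, or 0.321 TPM without Postn-negative cells 7 and 13. Glial markers summed to 15.9 and 32.8 TPM in the same order, led by Cnp, with Sox10 at 0 in both. Cardiomyocyte markers summed to 94.3 TPM, led by Myl2 with Myh6 and Actc1 at 0, and 8.37 TPM, led by Tnnt2 with Myl2 at 0. In activated and resident Tcf21-traced cells, endothelial sums were 16.3 and 49.8 TPM, epicardial 12 and 86.2 TPM, and cardiomyocyte 12.7 and 58.3 TPM. Glial sums were 31.8 and 61.7 TPM and myeloid sums 8.45 and 15.8 TPM. Of the marker genes, Tek, Pdgfra and Dcn were more than 1 unit lower in activated cells. Besides Pdgfrb, Col1a1, Col3a1, Acta2 and Tagln were more than 1 unit higher. The part of all these markers in the differences of the members was not tested.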

How the data were processed

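Single non-myocytes of mouse hearts were captured on microfluidic chips, amplified and sequenced. The values deposited by the authors are log2(TPM + 1), transcripts per 1000000 on a log2 scale, for 17171 genes and 1 column per cell. Back-converted TPM summed to 999257 to 1000000 per cell. The submitters' processing notes name Bowtie 1.0.0, eXpress 1.5.1 and mm10, with no roles; the annotation is not given in the sources used here. A further 3 columns belong to no cell and were not used. The read depth of each cell is not given in the table. Class means of the deposited log2 values were compared in 5 comparisons with Python 3.11.15, NumPy 2.4.6, pandas 2.3.3 and SciPy 1.17.1, with no test because the labels name no mouse. A gene counted as detected above 5 TPM, and a difference as large past 1 log2 unit; the background was the 15733 genes detected in at least 1 cell. An upper limit for 0 cells is 3 counts of the total. The code was tested on simulated data.

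The members and lists were chosen with earlier results of these data known. Named genes are the 10 members; up to 6 per pathway list, highest mean first, above 5 TPM in at least 20% of the cells of a class of 12 or more; all genes of a list past 1 unit where the count was 5 or fewer, chosen after their values were seen; and the 3 genes with the highest mean r for each member above 5 TPM in at least 20% of cells. Motifs were chosen after the promoter sequences were seen. Alternatives were linear means, medians, pseudocounts of 0.1 and 5, centring, other class make-ups, other minimums and leaving out cells of low depth; cells of 2000 to 3500 genes and cells without 3 or more endothelial, myeloid, cardiomyocyte, epicardial or glial markers, and with 3 or more fibroblast markers, were added after the data were seen.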

Additional observations from a re-analysis of the deposited data

How the results depend on the processing

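No paired analysis was possible because no test was run and the replicate numbers only name cells. The count of 4 members higher in traced than in negative cells was 4 to 6 under all alternatives, but with linear means Sfrp1 and Frzb were not among the 5. With linear means, 2 members were lower in activated than in resident Tcf21-traced cells; 3 were higher and 1 lower in untraced Postn-positive than in Tcf21-traced cells; 2 were higher and 1 lower in resident Tcf21-traced than in resident CD31- CD45- cells; and 2 were higher in Postn-negative than in resident CD31- CD45- cells. Dkk3 reversed there to -0.31 in activated against resident Tcf21-traced cells, through resident cell 14. With medians, 0 were lower in activated Tcf21-traced cells, 4 were higher in untraced Postn-positive cells and 0 were lower in Postn-negative cells. With a pseudocount of 0.1, the counts higher were 2 in untraced Postn-positive, 1 in resident Tcf21-traced and 2 in Postn-negative cells. Centring gave 1 higher in untraced Postn-positive cells; it shifts genes at 0 in both classes too, by 0.52 in traced against negative and 0.45 in activated against resident Tcf21-traced cells. In resident Tcf21-traced cells 1 was lower among cells of 2000 to 3500 genes and 1 without cells singled out by their markers, both added after the data were seen. The cause was not tested. Shares of cells moved past their interval in 5 of 210 recomputations. Of 420 recomputed differences of members, 45 counted as moved and 1 as reversed, under a tolerance that passed over some changes of sign. Of 50 per setting, 16 counted with centring, 13 with linear means (beside the reversal) and 11 with a pseudocount of 0.1. A pseudocount of 5 gave 3 and medians gave 2. Among cells of 2000 to 3500 genes 0 counted, though Sfrp1 and Sfrp2 changed sign in untraced Postn-positive against Tcf21-traced cells. Medians moved several differences by more than 1 unit, so these counts do not measure stability. The 7 cells of low depth were all in Nov11, so leaving them out took no cell from the 5 comparisons and says nothing about their stability.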
